A study of Mus musculus with 2 samples.

Results

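Among the genes that differed between AdipKO and WT organoids of the mouse small intestine, 21 encoded transcription factors of the lineage and signalling families. They were found by gene symbol. The count tables were joined on the gene ID, and 26 of the 1448 listed genes had a symbol that opened with 1 of 38 family stems, such as Fox, Klf, Hox, Tead or Nr with a digit. Of these, 5 were left out. Foxred2 shares a stem but encodes an oxidoreductase, Irf2bp1 and Atf7ip2 encode cofactors, Runx1t1 encodes a corepressor, and Nr1i3 was left out by the rule. Whether each of the 21 proteins binds DNA by itself was not tested. AdipKO organoids came from mice with the genotype Adipfl/flpVilli-CreT, in which the adiponectin gene is floxed and Cre is expressed in gut epithelial cells from a villin promoter. WT organoids came from Adipfl/fl mice, which carry the same floxed gene and no Cre. Both were crypt cultures in Matrigel with R-spondin at 500 ng/ml, the BMP inhibitor Noggin at 100 ng/ml and EGF at 50 ng/ml. There was 1 RNA library per genotype, the age of the mice was not in the labels, and no source used here said whether organoids of several mice were pooled. Adipoq, the deleted gene, was not among the listed genes, so the listed genes give no check of the deletion. Which library is AdipKO and which is WT rests on the labels alone, and every direction given here would turn round if they were exchanged.

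Transcription factors bind regulatory DNA and set which genes a cell reads out. In the gut epithelium they act in layers. Caudal, GATA and HNF4 factors give the tissue its intestinal identity, effectors of Wnt, Notch and Hippo signals act on stem and progenitor cells of the crypt, and factors of single lineages, such as Nkx2-2 in hormone-producing enteroendocrine cells, act late. Nuclear receptors add responses to bile acids and hormones, and Krüppel-like factors (KLF) respond to growth factors, glucocorticoids and nutrients.

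The values were estimated read counts per gene, not scaled to library size. Added over the listed genes, counts came to 689005 for AdipKO and 802995 for WT organoids, and these sums are not depths, because the tables held only genes that differed. The log2 count ratios left a gap from -1.04 to 0.96 with no gene in it. Each of the 21 genes therefore differed by about 2-fold or more by selection, and that they differed is not a finding. With no replicate there is no test. A ratio is given with its exact 95% interval, which covers counting error only. RNA of whole cultures was measured, so fewer cells of a type and less RNA per cell cannot be told apart.

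The transcription factors went both ways. By sign, 10 were higher and 11 were lower in the AdipKO library. At 2-fold or more, with 1 added to each count, 9 were higher and 11 were lower, while of all 1448 listed genes 35.3% were higher and 62.2% were lower. Because of the selection nearly every listed gene passed 2-fold, and nothing about the 21 genes is read from these shares. Cebpd was the gene under the threshold, at a log2 ratio of 0.96. With the listed totals made equal, the split was 10 higher and 8 lower, beside 37.8% higher and 45.6% lower of all listed genes. Klf10, Irf5 and Nkx2-2 then lay under 2-fold, and none of the 21 genes changed direction. At 4-fold or more, 3 of the 21 were higher and 2 were lower, beside 9.94% and 13.6% of all listed genes. The median log2 ratio was -1.10 over the 21 genes and -1.15 over all listed genes. By size the genes were near the rest of the list, with a median absolute log2 ratio of 1.47 for the 21 genes and 1.47 for all.

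**Figure D1:**
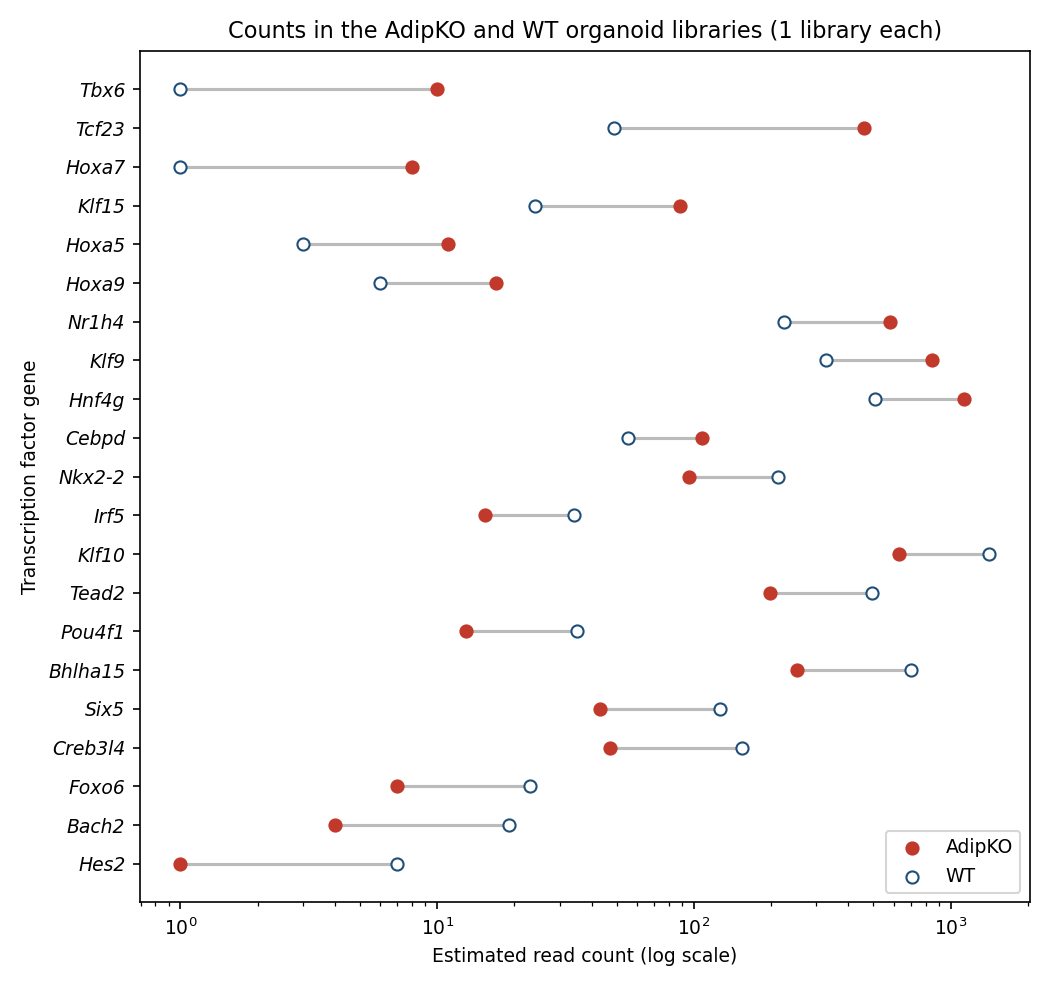
Estimated read count (log scale) of each of the 21 transcription factor genes, with 1 filled point for the AdipKO library and 1 open point for the WT library. Genes are ordered by their count ratio, from Tbx6 (10 against 1) at the top to Hes2 (1 against 7) at the bottom, and 9 genes had fewer than 50 counts in both libraries.

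The nuclear receptors found by family stem, Hnf4g and Nr1h4, were higher in AdipKO organoids. Nuclear receptor genes with other symbols were not part of this comparison. Hnf4g, a receptor that maintains enterocyte genes together with its paralogue Hnf4a, had 1124 counts in the AdipKO library, against 507 in the WT library. It was 2.22-fold higher (95% interval 1.99 to 2.47) and lies on chromosome 3 from 3508030 to 3659800 in mm10. Nr1h4, which encodes the bile acid receptor FXR, had 580 counts in AdipKO organoids and 224 in WT organoids. It was 2.59-fold higher (2.22 to 3.03) and lies on chromosome 10 from 89454234 to 89533645. Per kilobase of the longest coding transcript, the level of Hnf4g was 483 counts in AdipKO organoids and 218 in WT organoids, which put it at rank 1 and rank 2 of the 21 genes. Nr1h4 stood at rank 2 in the AdipKO library with 288 counts per kilobase and at rank 5 in the WT library with 111.

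Of 12 nuclear receptor target genes, 4 were listed and all 4 were higher, beside 35.3% of all listed genes. The list was not limited to targets of FXR, and the 4 were Fgf15, Slc51a, Cyp3a25 and Dhrs3. The FXR target Fgf15, an enterokine that signals to the liver, had 73 counts in AdipKO organoids and 9 in WT organoids. The FXR target Slc51a, a bile acid transporter subunit, had 28 counts in AdipKO organoids and 8 in WT organoids. Slc51b and Fabp6 were not listed. Of 8 enterocyte markers, 4 were listed. Sis, Fabp1 and Enpep were higher and Lct was lower, and their summed counts were 5163 in AdipKO organoids and 1621 in WT organoids. The part of the enterocyte markers in the values of Hnf4g and Nr1h4 was not tested.

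Among the KLF family, 3 of 17 mouse genes were listed and they went in different directions. Klf9, a repressor induced by glucocorticoids and thyroid hormone, had 846 counts in AdipKO organoids and 328 in WT organoids, and was 2.58-fold higher (2.27 to 2.94). Klf15, a regulator of glucose and amino acid metabolism in liver and muscle, had 88 counts in AdipKO organoids and 24 in WT organoids, and was 3.67-fold higher (2.31 to 6.02). Klf10, an early gene of TGF-beta signalling, went the other way. It had 628 counts in the AdipKO library, against 1414 in the WT library, and was 2.25-fold lower (2.05 to 2.48). The intervals of Klf9 and Klf15 overlapped, and that of Klf10 lay on the other side of equality. Per kilobase of transcript, Klf10 was the most abundant of the 21 genes in the WT library, with 465 counts, and stood at rank 3 in the AdipKO library with 206. Summed over the 3 genes, KLF counts were 1562 in AdipKO organoids and 1766 in WT organoids. The forkhead factor Foxo6, a target of insulin signalling, was the only listed gene with a Fox stem that encodes a factor. It had 7 counts in AdipKO organoids and 23 in WT organoids, 3.29-fold lower with a wide interval of 1.36 to 9.07.

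Bhlha15, Creb3l4 and Nkx2-2 were lower in the AdipKO library. Bhlha15, also known as Mist1, a basic helix-loop-helix factor that builds the secretory apparatus of exocrine cells, had 252 counts in AdipKO organoids and 701 in WT organoids. It was 2.78-fold lower (2.41 to 3.23) and lies on chromosome 5 from 144190286 to 144194441. Creb3l4, a basic leucine zipper (bZIP) factor held in the membrane of the endoplasmic reticulum until it is cleaved, had 47 counts in AdipKO organoids and 154 in WT organoids, and was 3.28-fold lower (2.35 to 4.64). Nkx2-2, a homeodomain factor needed for enteroendocrine cell types, had 96 counts in AdipKO organoids and 212 in WT organoids, and was 2.21-fold lower (1.73 to 2.84). The intervals of these 3 genes overlapped one another, and no likeness is read from this because of the selection. Nkx2-2 overlaps the antisense gene Nkx2-2os over 10161 bp, and without strand their reads cannot be told apart. An overlap with a gene on the opposite strand was annotated for 7 of the 21 genes.

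Paneth and enteroendocrine cell markers were lower too. Of 8 Paneth cell markers, 6 were listed, each at a lower count, beside 62.2% of all listed genes. The 6 markers had a median log2 ratio of -2.55, beside -1.47 for Bhlha15 and -1.69 for Creb3l4. Their summed counts, 19388.5 in AdipKO organoids and 44806 in WT organoids, were mostly those of Lyz1, with 16698 and 34709 in AdipKO and WT organoids. The other Paneth markers listed were Mmp7 and 4 defensin genes, near-identical copies that may share reads. Of 8 enteroendocrine markers, 6 were listed and all 6 were lower, beside 62.2% of all listed genes. The summed counts of the 6 were 4264 in AdipKO organoids and 10176 in WT organoids. Their median log2 ratio was -1.32, beside -1.13 for Nkx2-2, and the range over the markers was -1.64 to -1.11. Defa23 was the only one of these markers at a count of 0, in the AdipKO library. None of 6 goblet cell markers was listed. The part of these markers in the values of Bhlha15, Creb3l4 and Nkx2-2 was not tested.

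Promoter stretches of 6 of the genes described so far are shown, because these genes were well counted and held a match to a motif that was searched. Of the 21 genes, 16 matched a RefSeq promoter by gene ID (GRCm38.p6), and 250 bases before each start site were searched on both strands for 9 motifs. No motif contained another. The capitals mark the match, which may lie on the other strand.
Klf9: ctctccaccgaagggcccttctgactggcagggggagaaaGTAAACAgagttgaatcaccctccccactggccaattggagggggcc
Klf15: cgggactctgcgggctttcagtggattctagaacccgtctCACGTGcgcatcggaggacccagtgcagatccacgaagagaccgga
Nr1h4: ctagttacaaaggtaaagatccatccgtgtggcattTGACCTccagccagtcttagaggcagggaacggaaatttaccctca
Bhlha15: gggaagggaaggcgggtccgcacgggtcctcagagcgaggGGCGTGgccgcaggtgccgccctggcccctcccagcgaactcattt
Creb3l4: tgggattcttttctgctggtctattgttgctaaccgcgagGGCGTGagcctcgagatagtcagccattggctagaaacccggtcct
Nkx2-2: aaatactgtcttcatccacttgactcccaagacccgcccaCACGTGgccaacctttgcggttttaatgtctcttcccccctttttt

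The Klf9 stretch (chr19:23141086-23141172, plus strand) held the forkhead motif TGTTTAC, read on the other strand, 100 bases before the start site. That motif was in 3.17% of all 32851 promoters searched. The E-box CACGTG was in 6.02% of promoters and in those of Klf15 (chr6:90462364-90462449, plus strand) and Nkx2-2 (chr2:147186530-147186615, minus strand), which differed in opposite directions. Klf15 held it at 228 and 172 bases before the start, and the nearer match is shown. The nuclear receptor element AGGTCA was in 14.0% of promoters and, read on the other strand, in that of Nr1h4 (chr10:89506827-89506908, minus strand). The KLF-like motif CACGCC was in 13.4% of promoters. It lay on the other strand in those of Bhlha15 (chr5:144190181-144190266, plus strand) and Creb3l4 (chr3:90243565-90243650, minus strand), both lower in the AdipKO library, and also in those of Hoxa5 and Tcf23, both higher. GGAATG, the motif of TEAD factors, was in 12.6% of promoters and in those of Hoxa9, Tbx6 and Tcf23. TGAGTCA (4.46% of promoters) was in that of Six5, and AACAAAG (5.03%) in those of Six5 and Tead2. TGACGTCA (1.55%) and TGATGCAA (0.791%) were in none of the 16. For Klf15, Nr1h4, Creb3l4 and Nkx2-2 the start site used lies inside the span of the gene. These matches describe letters in the windows and are not measured binding sites.

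The gene with the largest difference among those with at least 50 counts was Tcf23. It had 458 counts in AdipKO organoids and 49 in WT organoids, and was 9.35-fold higher (6.95 to 12.8). Tcf23 lies on chromosome 5 from 30968602 to 30988062 and encodes a basic helix-loop-helix protein. Despite its symbol it is not one of the Tcf/Lef factors that bind beta-catenin, and of those only Lef1 was listed, with 1 count in AdipKO organoids and 23 in WT organoids. Among the 547 listed genes that were higher, Tcf23 ranked 44 by ratio, and the next of the 21 genes with at least 50 counts, Klf15, ranked 186.

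**Figure D2:**
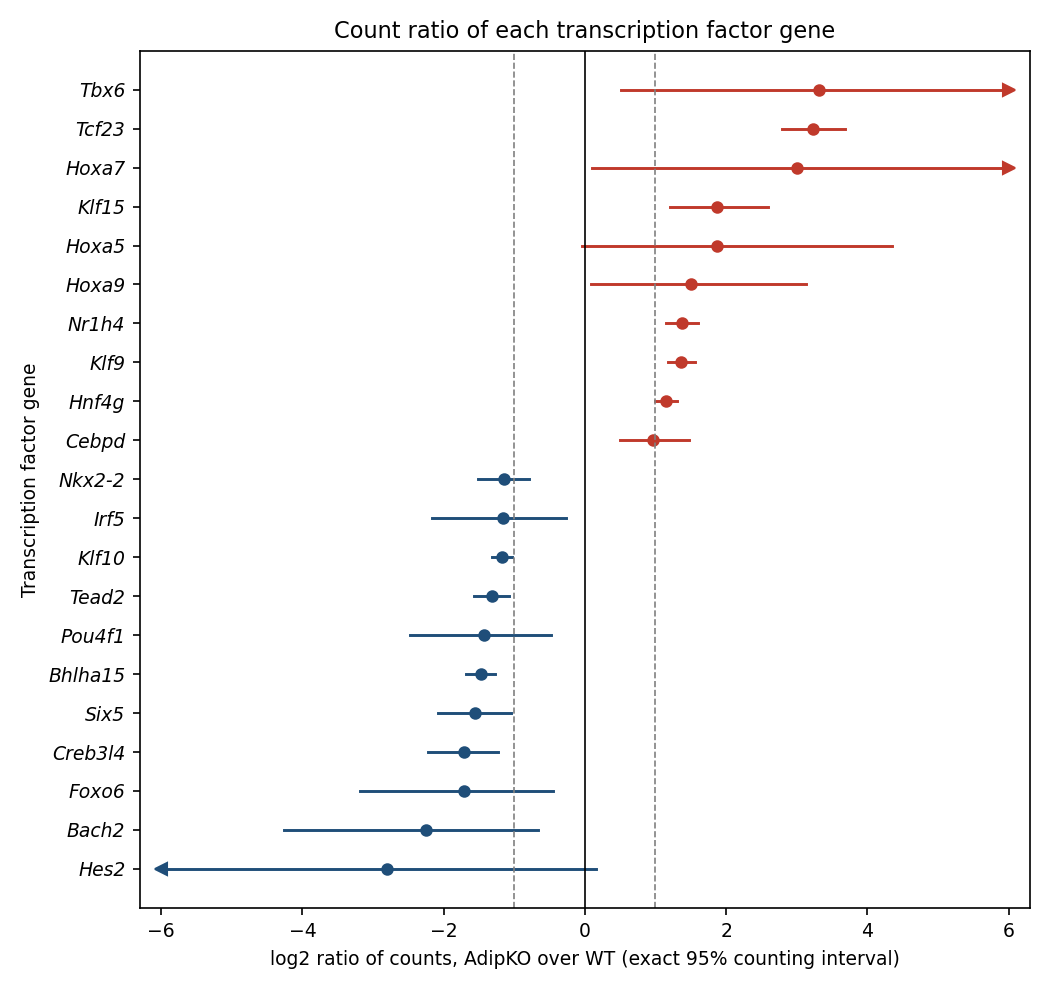
Log2 ratio of counts, AdipKO over WT, for each transcription factor gene, with its exact 95% counting interval as a bar. Dashed lines mark 2-fold, arrowheads mark intervals that run past the axis, and the bars of Hoxa5 and Hes2 cross 0 while the other 19 do not. Every gene was selected on this ratio, so a bar that leaves out 0 is not a finding.

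Among effectors of crypt signals, Tead2 was well counted and was lower in the AdipKO library. Tead2, a DNA-binding partner of the Hippo pathway coactivators YAP and TAZ, had 197 counts in AdipKO organoids and 492 in WT organoids. It was 2.50-fold lower (2.11 to 2.96) and lies on chromosome 7 from 45215792 to 45233468. It was 1 of 4 mouse Tead genes and the only one listed. Of 7 genes of the Hippo list, Ccn2, a matricellular protein induced by YAP, was listed, with 32 counts in AdipKO organoids and 109 in WT organoids. Of 8 Wnt genes 3 were listed, Axin2, Lgr5 and Rnf43, each at a lower count, beside 62.2% of all listed genes. The median log2 ratio of the 3 was -1.33. Of 8 Notch genes the ligand Dll4 was listed, with 143 counts in AdipKO organoids and 406 in WT organoids. Of 10 BMP and TGF-beta genes the ligand Bmp2 was listed, with 52 and 151 counts in AdipKO and WT organoids. Hes2, of the Notch effector family, had 1 count in AdipKO organoids and 7 in WT organoids, and its interval for the fold lower, 0.90 to 315, included no difference. Irf5, an interferon regulatory factor that acts downstream of Toll-like receptors, had 15.3 counts in AdipKO organoids and 34 in WT organoids, 2.22-fold lower (1.20 to 4.48). Its count was fractional, as arises when reads are shared between genes. Of 10 stem cell markers, 6 were listed and each had a lower count in the library labelled AdipKO, beside 62.2% of all listed genes. The summed counts of the 6 were 40849 in AdipKO organoids and 110181 in WT organoids. Axin2 and Lgr5 stand on both the Wnt and the stem cell list. The part of these markers in the values of Tead2 was not tested.

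**Figure D3:**
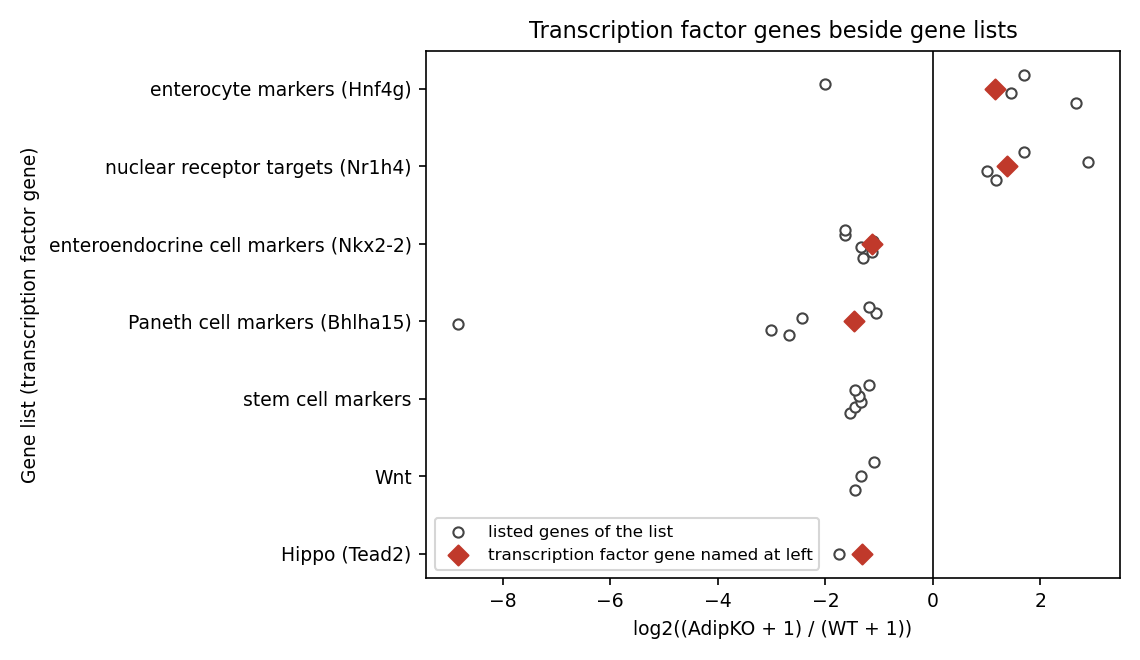
Log2 ratio, AdipKO over WT with 1 added to each count, of the listed genes of 7 gene lists (open points) beside the transcription factor gene that 5 of the lists are set with (filled diamond). Hnf4g lies on the higher side with 3 of 4 enterocyte markers, and Nr1h4 with all 4 listed nuclear receptor targets. That target list was not limited to targets of FXR, and of the 4 only Fgf15 and Slc51a are named as such in the text. Nkx2-2 and Bhlha15 lie on the lower side with all 6 listed genes of each list, and Tead2 with Ccn2, the only listed gene of its list. Of all 1448 listed genes, 35.3% were higher and 62.2% were lower at 2-fold or more.

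The factors of body position were listed mostly at low counts. All 3 listed Hox genes, of 39 in the mouse, lie in the HoxA cluster on chromosome 6, which holds 11 genes that pattern the body from head to tail. Hoxa5 had 11 counts in AdipKO organoids and 3 in WT organoids, Hoxa7 had 8 and 1, and Hoxa9 had 17 and 6. All 3 were higher in the AdipKO library, beside 35.3% of all listed genes. The summed counts of the 3 were 36 in AdipKO organoids and 10 in WT organoids. Hoxa9 was 2.83-fold higher (1.07 to 8.78). The interval of Hoxa7 ran from 1.07 to 355, and that of Hoxa5 from 0.97 to 20.5, which included no difference. They lie between 52201754 and 52227370, and Hoxa5 and Hoxa7 overlap the antisense gene Hoxaas3, whose reads cannot be told apart from theirs without strand. Hoxa5 also lies wholly within an annotated span of Hoxa3 on the same strand. Tbx6, a T-box factor of early mesoderm, had 10 counts in AdipKO organoids and 1 in WT organoids, a ratio of 10.0 with an interval of 1.42 to 434.

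Among the genes found by family stem, the homeodomain factors outside the HoxA cluster, Six5, Pou4f1 and Nkx2-2, were lower. Homeodomain genes with other symbols were not part of this comparison. Six5, whose gene lies on chromosome 7 from 19094544 to 19098549, had 43 counts in AdipKO organoids and 126 in WT organoids, and was 2.93-fold lower (2.06 to 4.24). Pou4f1, a POU factor best known from sensory neurons, had 13 counts in AdipKO organoids and 35 in WT organoids, 2.69-fold lower (1.39 to 5.55). By family stem, Hnf4g, the HoxA genes, Tbx6, Six5, Pou4f1 and Nkx2-2 formed a group of position and lineage factors. Of these 8 genes 5 were higher, beside 35.3% of all listed genes, and the median log2 ratio was 1.25. With at least 16 counts over both libraries, 5 of the 8 remained and the median was -1.13, so the direction of the group rested on the thinly counted genes.

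Of the remaining bZIP factors, Cebpd was higher and Bach2 was lower. Cebpd, an acute-phase regulator, had 107.94 counts in AdipKO organoids and 55.19 in WT organoids, 1.96-fold higher (1.41 to 2.77). Its counts were fractional, and the gene overlaps Spidr, on the opposite strand, over 1808 bp, where reads could not be separated without strand. Bach2, a repressor best known from lymphocytes, had 4 counts in AdipKO organoids and 19 in WT organoids, 4.75-fold lower (1.58 to 19.2). With Bhlha15 and Creb3l4, this group of 4 had 3 genes lower, beside 62.2% of all listed genes. Its median log2 ratio was -1.58. No member was listed for the immediate early stems Jun, Fos and Egr, for the stem Maf, or for the cell cycle stems E2f and Myb. In all, 17 of the 38 stems had a member and 21 had none. A gene that was not listed was not analysed here.

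**Figure D4:**
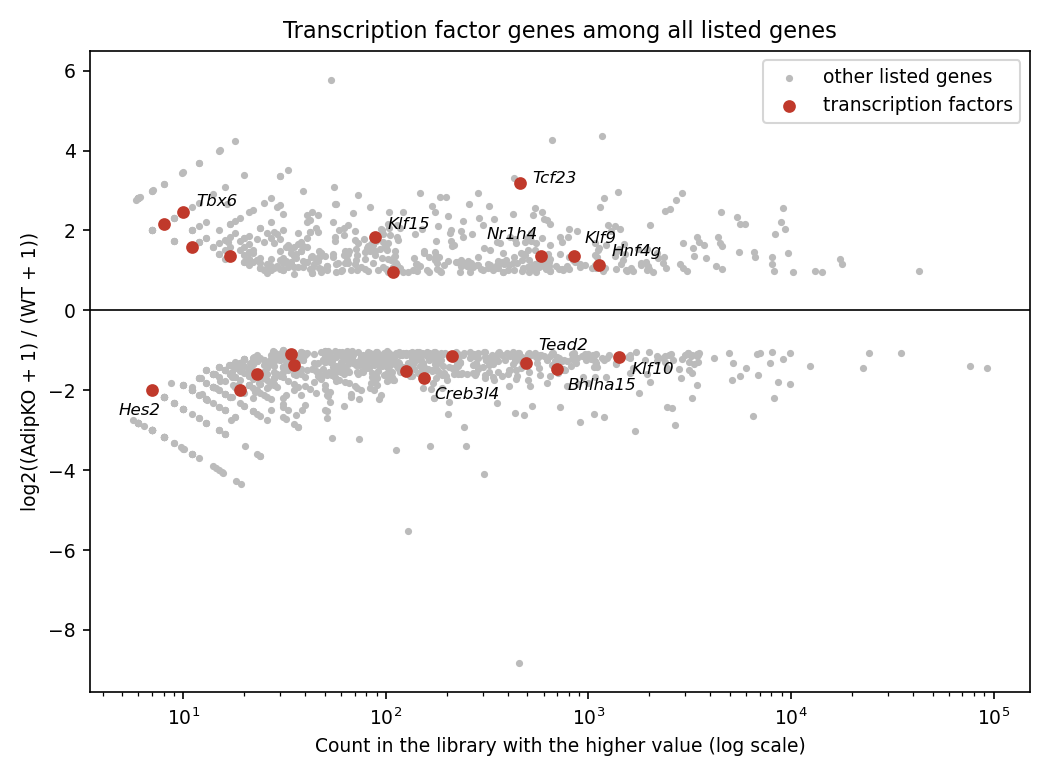
Log2 ratio, AdipKO over WT with 1 added to each count, against the larger of the gene's 2 counts (log scale), for the transcription factor genes (large points) and the other listed genes (small points). The empty band around 0 is the selection of the tables, and Tcf23 at 3.20 stands above the other transcription factor genes with at least 50 counts.

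The fate factors outside these families, taken from a list of 49, were also split. Of 13 listed, 4 were higher and 9 were lower, beside 35.3% and 62.2% of all listed genes. The median log2 ratio was -1.19, beside -1.15 over all listed genes. The lower genes included Ascl2 of stem cells, with 174 counts in AdipKO organoids and 511 in WT organoids. Neurog3, which commits progenitors to the enteroendocrine lineage, had 214 and 487 counts in AdipKO and WT organoids, 2.28-fold lower (1.93 to 2.69). Neurod1, which acts after it, was 2.16-fold lower (1.78 to 2.63). Pax4, of the same lineage, was 3.33-fold lower (1.54 to 7.98). Nkx2-2, which works in the same lineage, was 2.21-fold lower, within the intervals of all 3 genes. Selection at about 2-fold or more brings such ratios together, so no likeness is read from this. Neurod1 and Pax4 are also on the enteroendocrine marker list, and Ascl2 on that of stem cells. The higher genes were Ddit3, Hif1a, Pparg and Spib. Ddit3, a bZIP factor of the stress response that heterodimerises with C/EBP proteins such as that of Cebpd, had 1187 counts in AdipKO organoids and 167 in WT organoids. Hif1a, the oxygen-regulated subunit of hypoxia-inducible factor, had 3790 counts in AdipKO organoids and 1537 in WT organoids.

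Transcript composition differed with direction among the transcription factors, as it did over the whole list. The median GC content of the longest coding transcript was 50.7% for the 10 genes that were higher and 55.7% for the 11 that were lower. Over all listed genes with a transcript, it was 49.2% for those higher and 53.7% for those lower. The median length was 2404.5 nucleotides for the 10 genes that were higher and 3007 for the 11 that were lower. For all listed genes with a transcript, the median was 2460 nucleotides for those higher and 3395.5 for those lower. Hnf4g had the lowest GC content of the 21, at 41.5%, and Foxo6 the highest, at 69.1%. The part of base composition and length in the direction of the ratios was not tested.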

How the data were processed

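The authors sequenced organoid RNA on the MGISEQ-2000 with 100 bp paired-end reads and deposited estimated counts of reads per gene, the same 1448 genes in both tables. Per the labels the build was mm10. Which aligner, counter and annotation were used, and whether strand was kept, is not given in the sources used here. Methods of the study name FPKM, and the deposited values are not FPKM. Of the 1448 genes, 1239 had whole counts in both libraries, with no tolerance. The raw log2 ratios left a gap from -1.04 to 0.96, so the genes appear selected on fold change, library totals are unknown, and counts were not scaled. Log2 ratios used a pseudocount of 1 and calls a 2-fold threshold. Ratios of both counts, rounded to whole counts, were given exact (Clopper-Pearson) 95% intervals (SciPy 1.17.1). These were tested on simulated counts without a selection on fold change, so their coverage after that selection is not known. Reads are not independent molecules.

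Coordinates came from RefSeq (GRCm38.p6, the assembly behind mm10), and length and GC content from the longest protein-coding GENCODE transcript, known for 1394 genes. The rule for named genes took those that reached 50 counts in either library and the 3 with the highest count in each role group. The remaining thin genes were also given by name, beyond the rule. Members and lists were chosen with earlier results of these data known. Alternatives covered the pseudocount, scaling, low counts, the threshold and whole counts.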

Additional observations from a re-analysis of the deposited data

How the results depend on the processing

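Of 135 alternative values for the transcription factor genes, 128 stayed within 1.5 times the count or within the counting interval, 6 moved and 1 changed sign. At a 4-fold threshold 3 genes were higher and 2 lower, in place of 9 and 11, and of all 1448 listed genes 144 were higher and 197 lower. The median log2 ratio of the position and lineage factors was 1.25, and with at least 16 counts over both libraries it was -1.13, because 3 of its 5 higher genes were then left out. Making the listed totals equal shifted log2 ratios by up to 0.22 and moved 4 single genes beyond their counting interval. Klf10 was then at -0.95, Bhlha15 at -1.25, Hnf4g at 1.37 and Klf9 at 1.58. All 4 are well counted and have narrow intervals. The wide interval of a thinly counted gene holds so small a shift in any case, so staying within it is no sign of stability. Setting the middle of the gap in the ratios to 0, an alternative chosen after the data were seen, moved none. None of the 84 single-gene alternatives changed sign. Depth limited 9 genes with fewer than 50 counts in the higher library. No paired analysis was possible because there was 1 library per genotype, and no replicate could be left out.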

Other observations

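The genes set aside from the transcription factors were measured too. Irf2bp1, which encodes a cofactor that binds interferon regulatory factor 2, had 829 counts in AdipKO organoids and 1720 in WT organoids. Runx1t1, a corepressor, had 18 and 39 counts in AdipKO and WT organoids. Atf7ip2 had 111 counts in AdipKO organoids and 39 in WT organoids. Of 11 circadian clock genes, 2 were listed, and they differed in opposite directions. Dbp, a clock output bZIP factor, had 553 counts in AdipKO organoids and 171 in WT organoids, in fractional counts. Npas2, a partner of the clock activator Arntl, had 272 counts in AdipKO organoids and 766 in WT organoids. Of 6 immune cell markers, Cd68 and Itgam were listed, with summed counts of 292 in AdipKO organoids and 134 in WT organoids. Irf5 and Bach2, both well known from immune cells, had lower counts in AdipKO organoids. Of 7 fibroblast markers Vim was listed, with 109 counts in AdipKO organoids and 322 in WT organoids.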
